A study of Mus musculus with 12 samples.

Results

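The genes of the DNA replication machinery were examined in R1 mouse embryonic stem cells (mESCs) before and after retinoic acid (RA), with and without an inhibitor of O-GlcNAc transferase (OGT). The set was defined by symbol and held 42 genes in 9 complexes or steps, out of 54555 genes measured. Each symbol had a single row, and all 42 were among the 14866 genes expressed highly enough to test. In late mitosis and G1 the origin recognition complex, with Cdc6 and Cdt1, loads the MCM2-7 helicase onto origins. In S phase Cdc45 and the GINS proteins join MCM2-7 to form the active CMG helicase, polymerase alpha-primase starts each strand, and polymerases delta and epsilon extend it on the PCNA clamp. Mouse embryonic stem cells have a short G1 phase and spend much of the cycle in S phase, and many of these genes are known targets of E2F transcription factors.

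R1 is an established mouse line, grown on gelatin with leukemia inhibitory factor to hold back differentiation. DIF_5S cells were pre-treated with 25 µM Ac45SGlcNAc, the OGT inhibitor, over 48 h. They were then given 1 µM RA for 48 h in medium without leukemia inhibitory factor. DIF_NC cells had the same RA step after DMSO, the solvent. N_5S cells were mESCs exposed to 25 µM of the inhibitor over 48 h, and N_NC cells were mESCs without it, for which a solvent treatment is not mentioned. Each group had 3 libraries of 15553627 to 17833464 recovered fragments, and the labels do not say what the replicate numbers stand for, so p-values reflect only how libraries of a group scatter, which may be technical variation. RA, the lack of leukemia inhibitory factor and the 48 h of the RA step came together and cannot be told apart. In comparisons with N_NC the solvent may differ as well. The sources used here do not say whether the inhibitor was present during the RA step. In bulk RNA, fewer cells in a given phase or of a given type and less RNA per cell cannot be told apart either.

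The labels were set against markers. The summed level of 8 stem cell markers was 390 to 418 FPKM in DIF_5S and 488 to 543 FPKM in DIF_NC libraries, against 2252 to 2325 FPKM in N_5S and 2189 to 2239 FPKM in N_NC libraries. The 6 RA response genes summed to 1068 to 1119.7 FPKM in DIF_5S and 815 to 867 FPKM in DIF_NC, against 50.5 to 57.5 FPKM in N_5S and 46.6 to 51.9 FPKM in N_NC. Markers of other cells also moved with RA. The 6 trophoblast genes summed to 129.8 to 143 FPKM in DIF_5S and 264 to 347 FPKM in DIF_NC, against 62.9 to 76.3 FPKM in N_5S and 69.6 to 73.6 FPKM in N_NC. Krt8 and Krt18 made up most of that sum, and the list did not move as one. With RA without inhibitor Krt8, Krt18 and Cdx2 rose and Eomes and Hand1 fell. The 6 extraembryonic endoderm genes summed to 19.6 to 21.2 FPKM in DIF_5S and 16.6 to 18.9 FPKM in DIF_NC, against 6.24 to 7.16 FPKM in N_5S and 5.91 to 6.35 FPKM in N_NC. The 7 fibroblast genes summed to 22.2 to 23.4 FPKM in DIF_5S and 21.1 to 23.8 FPKM in DIF_NC, against 14.3 to 16.2 FPKM in N_5S and 15.4 to 16.6 FPKM in N_NC. This list did not move as one either. With RA without inhibitor 3 of its 4 tested genes rose and Thy1 fell. Of the 7 fibroblast genes, Dcn was listed at 0 in all libraries, and Lum and Col3a1 in all libraries of DIF_NC, N_5S and N_NC. Their part in the changes below was not tested. Mgea5, which encodes the enzyme that removes O-GlcNAc, averaged 8.26 ± 1.15 FPKM in DIF_5S against 46.1 ± 2.49 FPKM in DIF_NC, and 9.46 ± 0.327 FPKM in N_5S against 37.2 ± 1.05 FPKM in N_NC (SD, n = 3). Ogt averaged 26.4 ± 1.94 FPKM in DIF_5S against 23.2 ± 3.14 FPKM in DIF_NC, with overlapping libraries. In mESCs it averaged 40.8 ± 0.753 FPKM in N_5S against 18.1 ± 1.92 FPKM in N_NC.

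The lowest value of any of the 42 genes in any library was 2.43 FPKM, for Fen1, and the means of the genes spanned 43.4-fold in DIF_5S and 34.9-fold in DIF_NC, and 75.1-fold in N_5S and 57.0-fold in N_NC. FPKM scale the fragments of a gene by its length and by the library, so levels of different genes can be set side by side only roughly. The length used can exceed that of the longest GENCODE transcript, at 6956 against 3494 bases for Mcm2. For Mcm4 both were 3589 bases. Exons shared with another gene, as for Fen1 and Gins2, and near-identical transcripts of another annotated gene, as for Pcna and Mcm7, are further limits. The 42 genes together made up 1507 ± 46.4 FPKM in DIF_5S and 1506 ± 82.4 FPKM in DIF_NC, against 2432 ± 57.2 FPKM in N_5S and 2453 ± 30.4 FPKM in N_NC (SD, n = 3). Mcm5 was the highest of them in both mESC groups. Rpa1 was the highest in DIF_5S and Pold2 in DIF_NC. Orc4 was listed lowest in the mESC groups and Fen1 in the RA groups. The least covered value rested on 110 fragments, for Fen1, and the most covered on 13604, for Mcm5, so counting error was larger for the low genes.

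**Figure D1:**
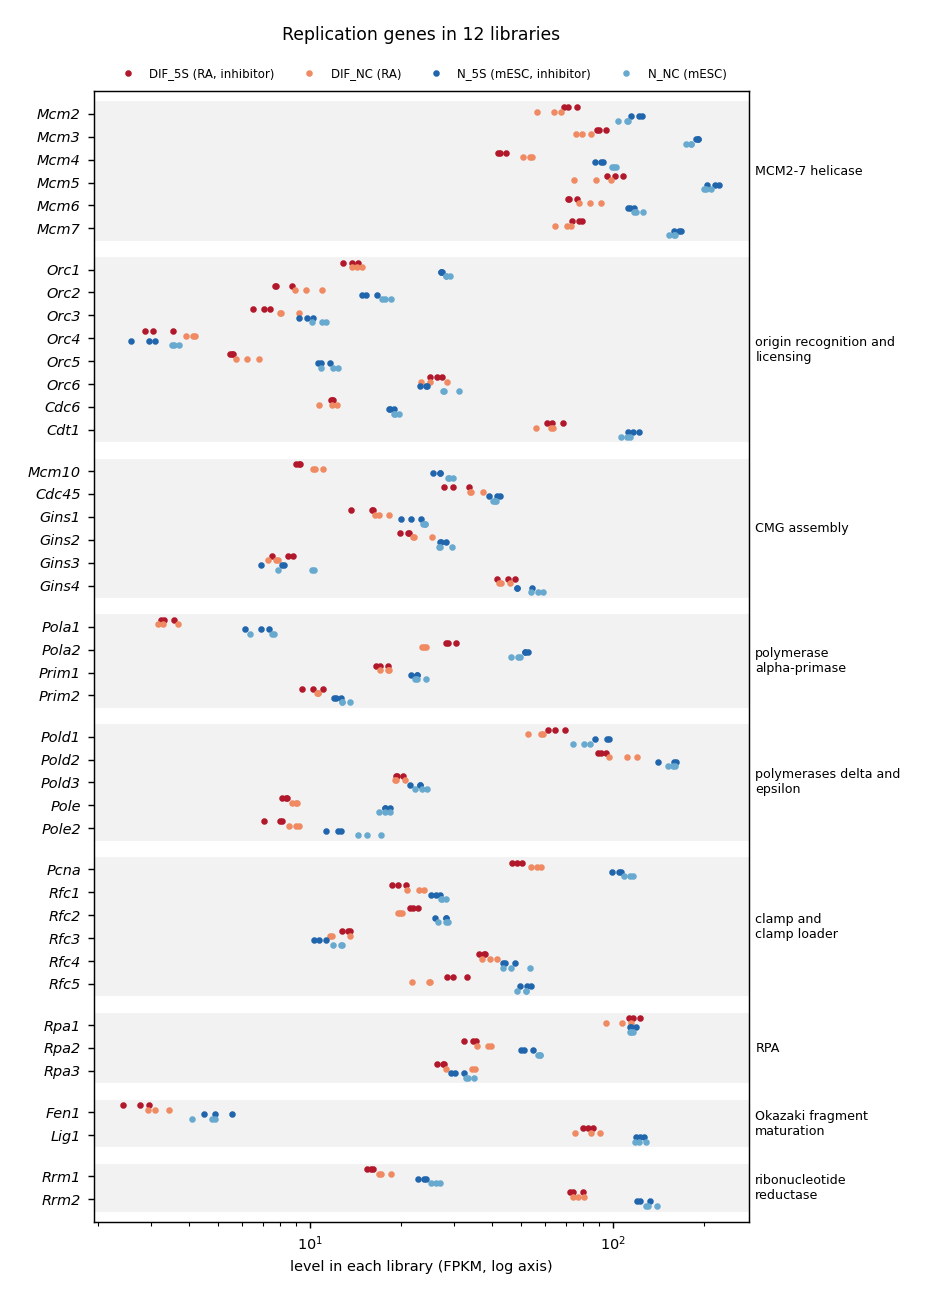
Level of each of the 42 replication genes in each of the 12 libraries, as FPKM on a log axis, grouped by complex; each point is 1 library, with the RA groups in red and orange and the mESC groups in blue. For most genes the RA libraries lie left of the mESC libraries, and for Orc4, Orc6, Gins3, Rfc3, Rpa1 and Rpa3 they overlap.

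Most of the machinery fell with RA in cells without inhibitor. Of the 42 genes, 37 were lower in DIF_NC than in N_NC libraries and 0 were higher at an adjusted p under 0.05 (limma on log2(FPKM + 1), Benjamini-Hochberg over all tested genes), while 70.9% of all tested genes were called, 37.2% lower and 33.7% higher. The median replication gene had a log2 fold change of -0.53, against -0.03 for the median of all tested genes. The MCM2-7 helicase had the lowest median of the groups with more than a pair of genes, at -1.04, followed by origin recognition and licensing at -0.74, polymerase alpha-primase at -0.63, polymerases delta and epsilon at -0.52, the clamp and its loader at -0.37, CMG assembly at -0.32 and replication protein A (RPA) at -0.13. The pairs Rrm1 with Rrm2 and Lig1 with Fen1 had medians of -0.66 and -0.49. The test was not passed for Orc4, Orc6, Rfc3, Rpa1 and Rpa3. At an unadjusted p under 0.05, without regard to direction, there were 38 genes. The share of all tested genes at that cut was not computed. Limma-voom called 1 gene higher, where it called 5378 of 14866 tested genes higher. Fold changes on this scale understate the change of low genes.

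The size of the fall depends in part on how the libraries are scaled. With the values rescaled to TPM, the median of the same tested genes stood at 0.16 and that of the replication genes at -0.30, so the replication genes differed from the median gene by -0.46, against -0.50 in the deposited scaling. The choice of background mattered more. Among genes with a mean of at least 5 FPKM the median gene stood at -0.18 and the median replication gene at -0.55, a difference of -0.37. Of the 7942 genes tested there, 3964 were called lower. Under TPM 28 replication genes were called lower and 4 higher, and 64.3% of all called genes were higher, against 47.5% in the deposited scaling and 35.7% with a filter at a mean of 5 FPKM. The falls of Orc3, Cdc45, Gins2, Gins3, Prim1, Prim2, Pold3, Rfc1 and Rfc4 were lost under at least 1 scaling, and those of the other 28 genes were called under every alternative tried.

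In cells that had received the inhibitor, 36 of the 42 genes fell with RA and 1 rose (DIF_5S against N_5S, where 68.7% of all tested genes were called, 36.7% lower and 32% higher). The median replication gene had a log2 fold change of -0.59, against -0.04 for all tested genes. Of all called genes 46.6% were higher, against 66.8% under TPM and 34.2% with the filter at a mean of 5 FPKM. With that filter the median replication gene differed from the median gene by -0.41, against -0.55 with the main filter. By complex, the medians with inhibitor were -1.06 for MCM2-7, -0.73 for origin recognition and licensing, -0.41 for CMG assembly, -0.58 for polymerase alpha-primase, -0.59 for polymerases delta and epsilon, -0.34 for the clamp and its loader and -0.16 for RPA. In FPKM + 1, the quantity tested, called falls of at least 2-fold were seen for 7 genes with inhibitor and for 6 without. This leaves out low genes whose FPKM fell as far. The share of all tested genes with such a fall was not computed, so these counts cannot be set against it. Under TPM 28 genes were called lower and 5 higher. The falls of Orc3, Gins4, Prim1, Prim2, Pold3, Rfc1, Rfc2 and Rfc4 were then lost, and Orc4, Orc6, Gins3 and Rpa1 were called higher beside Rfc3. Gins3 had been called lower without inhibitor and was not called with it, and Rfc3 was the gene that rose. These comparisons share no libraries with each other, and for none of the 42 genes did the fold change with RA differ between them at an adjusted p under 0.05 in the deposited scaling.

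**Figure D2:**
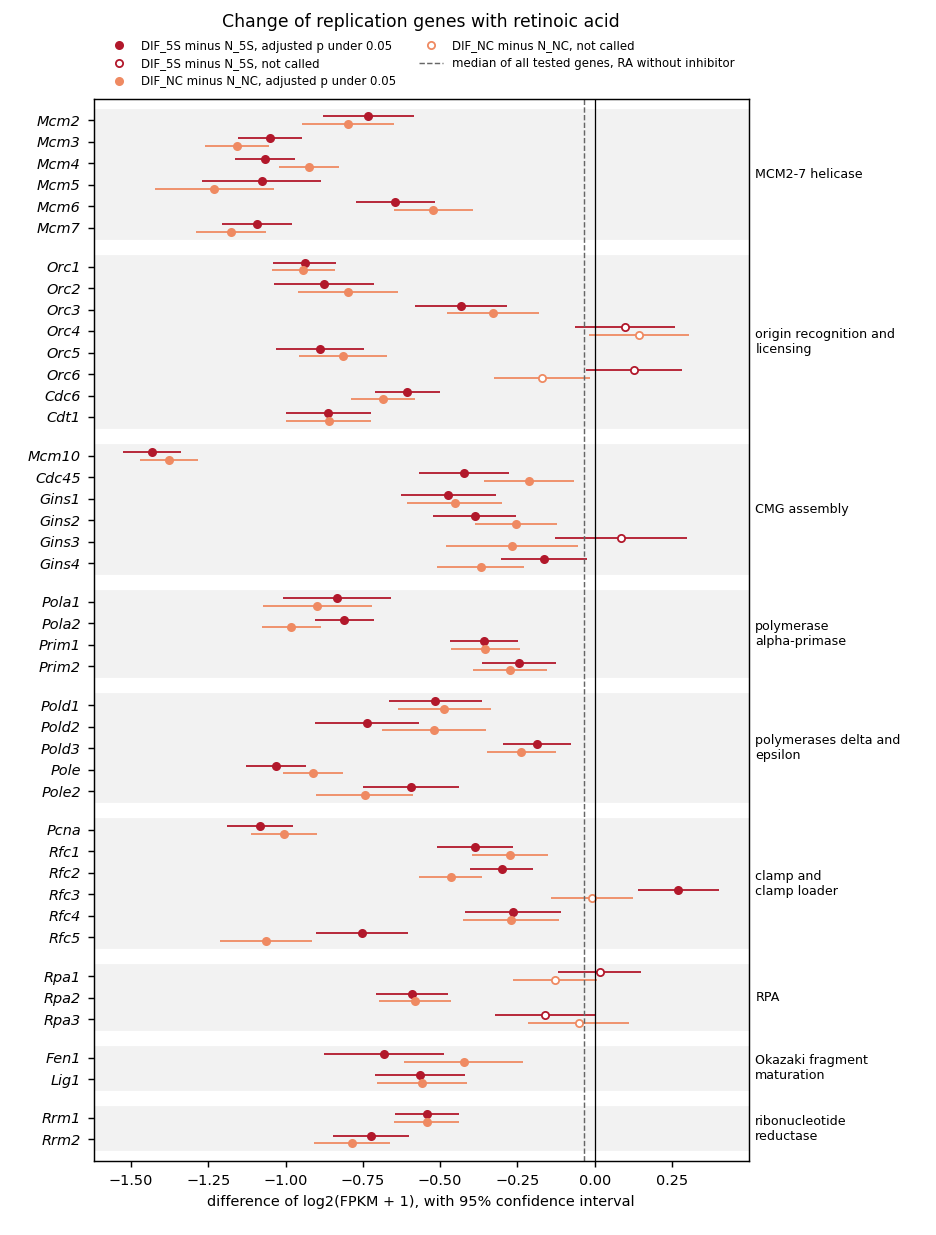
Difference of log2(FPKM + 1) with RA for each of the 42 genes, with and without inhibitor, with 95% confidence intervals from the limma fit; filled points passed an adjusted p of 0.05, and the dashed line marks the median of all tested genes without inhibitor at -0.03. Of the DIF_NC minus N_NC points, 37 are filled and all of those lie left of 0 in the deposited scaling, with Cdc45 at 0.02 under TPM scaling.

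The promoters of these genes were searched for the strings that E2F proteins are known to bind, since E2F sites carry much of the cell cycle control of replication genes. RefSeq promoters (GRCm38.p6, 250 bases before to 50 after the start) were found for 35 of the 42 genes, and none for Mcm4, Gins1, Gins2, Gins4, Prim2, Pole and Rfc2. A match to TTTCCCGC or to TTTCGCGC, or to TTTGCCGC or to TTTGGCGC, on either strand, was present for 15 of the 35 genes (42.9%). Of all genes listed with promoters 2.61% had such a match, and of the tested genes with a promoter 4.91%. The CCAAT box was present for 65.7% of the 35 genes against 41.1% of all genes, and TTTGAA or TTCGAA, the core of the cell cycle homology region, for 7 of the 35 against 21.7%. Over the tested genes alone, these shares were 43.4% and 15.6%. Of the 15 genes with an E2F string, 14 fell with RA without inhibitor and the median log2 fold change was -0.68. Of the 20 genes without one, 16 fell and the median was -0.53. With inhibitor the order of the medians was the other way, at -0.61 with a string (13 of 15 fell and 1 rose) and -0.64 without one (16 of 20 fell). A string match describes the sequence and is not a bound site.

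MCM2-7, the ring that unwinds the parental strands, fell in all 6 subunits. Mcm5 (ENSMUSG00000005410, chromosome 8, 75109569 to 75128439, GRCm38) had the largest change of the complex, with 102, 95.6 and 108 FPKM in DIF_5S, 88.3, 74.6 and 99.2 FPKM in DIF_NC, 205, 225 and 218 FPKM in N_5S and 201, 203 and 212 FPKM in N_NC. Every RA library was below every mESC library, and the values of DIF_5S and DIF_NC overlapped. The change without inhibitor was a log2 fold change of -1.23 (SE 0.0879, adjusted p = 1.73e-07) and with inhibitor -1.08 (adjusted p = 5.47e-07). Mcm6 (ENSMUSG00000026355, chromosome 1, 128331590 to 128359664) had the smallest change, with 71.1, 76.1 and 72.03 FPKM in DIF_5S, 84.5, 77.2 and 91.3 FPKM in DIF_NC, 112, 115 and 118 FPKM in N_5S and 118, 126 and 119.8 FPKM in N_NC. Its RA libraries were also all below its mESC libraries, by less than for Mcm5 (log2 fold change of -0.52 ± 0.0587 SE, adjusted p = 8.19e-06 without inhibitor). Mcm7, Mcm3, Mcm4 and Mcm2 lay between these, with log2 fold changes without inhibitor of -1.18, -1.16, -0.92 and -0.80. Mcm3, Mcm5 and Mcm7 fell by at least 2-fold. A GENCODE gene that is absent from the deposited values is 97.7% identical to Mcm7 over 2157 bases and is not analysed here. Whether it is a separate copy or overlaps Mcm7 was not checked, so the counts of Mcm7 are less certain.

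The promoters of Mcm5, Mcm6 and Mcm7 are shown as examples of subunits that fell by unequal amounts and hold more than 1 E2F string. Mcm3 also holds a pair, both after the start, and is not shown. Each run gives 200 bases before to 25 after the RefSeq start, 5′ to 3′ on the gene's strand, with E2F matches in capitals (chr8:75109309-75109533, plus strand, chr1:128359681-128359905, minus strand and chr5:138171859-138172083, minus strand, GRCm38.p6).
Mcm5: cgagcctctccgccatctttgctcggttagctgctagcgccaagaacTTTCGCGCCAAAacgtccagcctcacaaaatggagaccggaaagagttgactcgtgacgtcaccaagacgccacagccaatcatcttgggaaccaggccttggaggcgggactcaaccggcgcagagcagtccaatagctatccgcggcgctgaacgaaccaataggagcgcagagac
Mcm6: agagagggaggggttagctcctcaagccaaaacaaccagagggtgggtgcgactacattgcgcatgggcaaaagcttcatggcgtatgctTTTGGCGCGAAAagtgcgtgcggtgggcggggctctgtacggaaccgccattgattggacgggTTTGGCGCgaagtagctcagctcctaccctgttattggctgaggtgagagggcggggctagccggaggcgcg
Mcm7: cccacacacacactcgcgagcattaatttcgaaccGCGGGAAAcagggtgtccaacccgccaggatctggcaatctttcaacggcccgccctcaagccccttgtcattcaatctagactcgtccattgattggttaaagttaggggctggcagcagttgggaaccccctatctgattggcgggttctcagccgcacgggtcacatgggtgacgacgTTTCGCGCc
In Mcm5 a pair of overlapping matches lies 153 and 149 bases before the start. Mcm6 has an overlapping pair 110 and 106 bases before the start and a further match 47 bases before it. Mcm7 has a match 165 bases before the start and another just after it, and a further RefSeq promoter of Mcm7 has none.

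**Figure D3:**
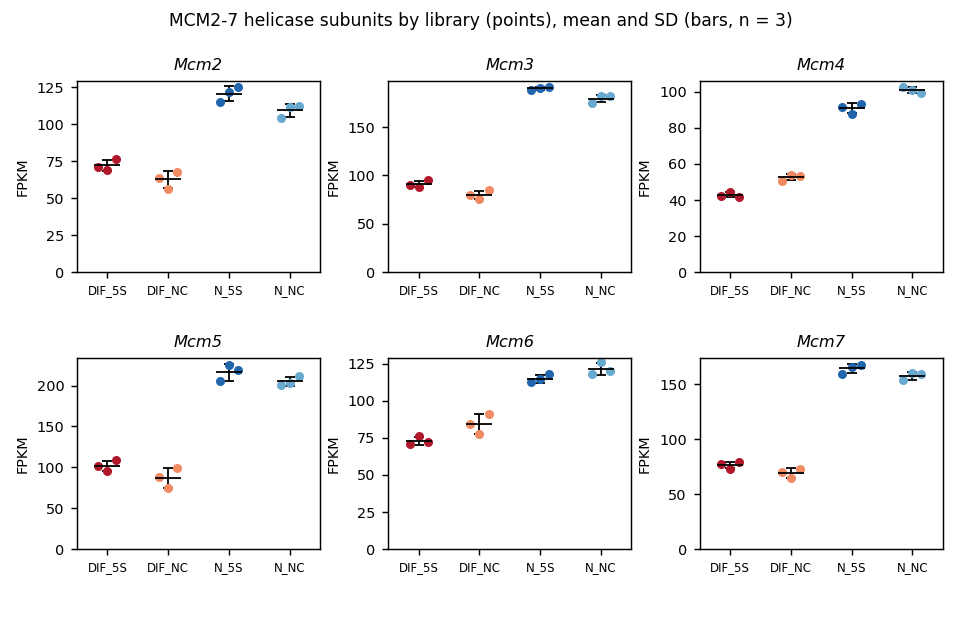
FPKM of the 6 MCM2-7 subunits in each library (points), with mean and SD (black bars, n = 3), by group. In each panel the RA groups lie below the mESC groups, and between DIF_5S and DIF_NC the order of the means differs by subunit, with Mcm4 and Mcm6 lower and the other subunits higher in DIF_5S.

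Among the origin recognition and licensing genes, 6 of 8 fell with RA without inhibitor. Orc1 (ENSMUSG00000028587, chromosome 4, 108579423 to 108614833), the largest subunit of the origin recognition complex, had the largest change, with 12.9, 13.8 and 14.4 FPKM in DIF_5S, 14.9, 13.8 and 14.3 FPKM in DIF_NC, 27.3, 27.1 and 27.1 FPKM in N_5S and 28.2, 28.2 and 29.1 FPKM in N_NC. Its RA and mESC libraries were well apart, and the change without inhibitor was -0.94 on the log2 scale (SE 0.0467, adjusted p = 8.7e-09). Orc4 (ENSMUSG00000026761, chromosome 2, 48902824 to 48950277), another subunit of the same complex, had a higher mean in DIF_NC than in N_NC, with 3.05, 3.55 and 2.86 FPKM in DIF_5S, 3.92, 4.13 and 4.19 FPKM in DIF_NC, 3.09, 2.95 and 2.58 FPKM in N_5S and 3.51, 3.70 and 3.58 FPKM in N_NC. DIF_NC libraries were above N_NC libraries without overlap, but the test was not passed (log2 fold change of 0.14 ± 0.0735 SE, adjusted p = 0.1; 95% confidence interval -0.02 to 0.30), and under TPM it was called higher, at 0.33. Orc2 and Orc5 changed by -0.80 and -0.82 and Orc3 by -0.33, which was lost under TPM. Nif3l1 shares 29.8% of the exon bases of Orc2 on the opposite strand. Orc6, the smallest subunit, was just above the threshold (log2 fold change of -0.17 ± 0.0708 SE, adjusted p = 0.0503). Cdc6 and Cdt1, which bring MCM2-7 to the origin, fell by 0.68 and 0.86 on the log2 scale.

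Orc1 and Cdc6 are shown as licensing genes with a single E2F match that fell (chr4:108579254-108579478, plus strand, and chr11:98907951-98908175, plus strand, GRCm38.p6, same window and capitals).
Orc1: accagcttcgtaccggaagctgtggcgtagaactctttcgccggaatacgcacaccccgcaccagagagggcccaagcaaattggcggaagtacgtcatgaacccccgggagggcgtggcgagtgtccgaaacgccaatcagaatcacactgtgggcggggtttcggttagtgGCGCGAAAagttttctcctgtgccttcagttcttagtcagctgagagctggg
Cdc6: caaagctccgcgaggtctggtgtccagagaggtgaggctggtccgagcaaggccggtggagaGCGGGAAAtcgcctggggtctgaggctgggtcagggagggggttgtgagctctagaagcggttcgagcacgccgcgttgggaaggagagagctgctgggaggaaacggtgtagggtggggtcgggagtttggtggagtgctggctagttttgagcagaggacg
The match lies 27 bases before the start in Orc1 and 138 bases before it in Cdc6.

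The genes that turn the loaded helicase into an active fork all fell without inhibitor, by unequal amounts. Mcm10 (ENSMUSG00000026669, chromosome 2, 4989714 to 5012791), which is needed for helicase activation, had the largest change of all 42 genes, with 9.31, 9.02 and 9.22 FPKM in DIF_5S, 11.1, 10.4 and 10.3 FPKM in DIF_NC, 25.5, 26.9 and 27.02 FPKM in N_5S and 28.7, 29.7 and 28.8 FPKM in N_NC. All RA libraries lay far below all mESC libraries (log2 fold change of -1.38 ± 0.0425 SE, adjusted p = 2.47e-10 without inhibitor and -1.43 with it). Cdc45 (ENSMUSG00000000028, chromosome 16, 18780447 to 18811987), a subunit of the CMG helicase, had the smallest change, with 27.7, 29.8 and 33.6 FPKM in DIF_5S, 34.1, 33.9 and 37.2 FPKM in DIF_NC, 38.95, 41.7 and 42.4 FPKM in N_5S and 40.96, 40.2 and 41.2 FPKM in N_NC. Its RA libraries were all below its mESC libraries by a small margin (log2 fold change of -0.21 ± 0.0663 SE, adjusted p = 0.0126 without inhibitor), and under TPM scaling the value was 0.02. Of the GINS subunits, Gins1 and Gins4 changed by -0.45 and -0.37 without inhibitor, and Gins2 and Gins3 by -0.25 and -0.27. Gse1 shares 67.3% of the exon bases of Gins2 on the opposite strand, so the value of Gins2 is uncertain where strand was not used. Gins3 averaged 8.27 ± 0.674 FPKM in DIF_5S against 7.74 ± 0.73 FPKM in N_5S, and this did not pass (log2 fold change 0.09, adjusted p = 0.453), while under TPM it was called higher, at 0.33.

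Polymerase alpha-primase, which lays down the RNA-DNA primer, fell in all 4 subunits. Pola2 (ENSMUSG00000024833, chromosome 19, 5940543 to 5964206), its B subunit, had the largest change, with 28.7, 28.1 and 30.5 FPKM in DIF_5S, 24.3, 23.8 and 23.5 FPKM in DIF_NC, 52.7, 51.3 and 51.4 FPKM in N_5S and 49.5, 46.1 and 48.8 FPKM in N_NC. The RA and mESC libraries did not overlap (log2 fold change of -0.98 ± 0.0434 SE, adjusted p = 3.66e-09 without inhibitor). Prim2 (ENSMUSG00000026134, chromosome 1, 33453810 to 33669795), the large primase subunit, had the smallest, with 9.41, 10.3 and 11.1 FPKM in DIF_5S, 10.6, 10.6 and 10.7 FPKM in DIF_NC, 12.7, 12.02 and 12.2 FPKM in N_5S and 12.8, 13.6 and 12.8 FPKM in N_NC. Its RA libraries were all below its mESC libraries (log2 fold change of -0.27 ± 0.0546 SE, adjusted p = 0.000764), and the call was lost under TPM. The catalytic subunit Pola1 changed by -0.90 and the small primase subunit Prim1 by -0.35. The Pola1 promoter (chrX:93632131-93632355, minus strand, GRCm38.p6, same window and capitals) is shown as that of a catalytic subunit and holds 1 match, 138 bases before the start.
Pola1: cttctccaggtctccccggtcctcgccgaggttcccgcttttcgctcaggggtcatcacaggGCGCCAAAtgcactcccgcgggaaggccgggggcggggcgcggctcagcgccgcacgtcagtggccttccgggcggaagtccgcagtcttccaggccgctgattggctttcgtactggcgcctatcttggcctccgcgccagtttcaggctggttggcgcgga

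The subunits of polymerases delta and epsilon, which extend the lagging and the leading strand, fell in 5 of 5 cases. Pole (ENSMUSG00000007080, chromosome 5, 110286306 to 110337474), the catalytic subunit of epsilon, had the largest change, with 8.42, 8.33 and 8.08 FPKM in DIF_5S, 9.05, 9.06 and 8.72 FPKM in DIF_NC, 17.7, 18.5 and 17.7 FPKM in N_5S and 17.8, 16.9 and 18.4 FPKM in N_NC. No RA library reached the level of any mESC library (log2 fold change of -0.91 ± 0.0438 SE, adjusted p = 6.86e-09 without inhibitor). Pold3 (ENSMUSG00000030726, chromosome 7, 100082111 to 100121565), an accessory subunit of delta, had the smallest, with 20.4, 19.3 and 19.4 FPKM in DIF_5S, 19.2, 20.7 and 19.1 FPKM in DIF_NC, 23.1, 21.4 and 23.1 FPKM in N_5S and 24.3, 23.5 and 22.2 FPKM in N_NC. Here the groups were close but did not overlap (log2 fold change of -0.24 ± 0.0507 SE, adjusted p = 0.00129 without inhibitor), and the call was lost under TPM. Pole2 changed by -0.74, Pold2 by -0.52 and Pold1, the catalytic subunit of delta, by -0.49.

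The sliding clamp and its loader differed among themselves. Pcna, the clamp, averaged 48.3 ± 1.86 FPKM in DIF_5S and 56.01 ± 2.27 FPKM in DIF_NC, against 103 ± 3.65 FPKM in N_5S and 113 ± 3.91 FPKM in N_NC (SD, n = 3; log2 fold change of -1.004 ± 0.0487 SE, adjusted p = 7.39e-09 without inhibitor). Its counts are uncertain, because the pseudogene Pcna-ps2 is 99.2% identical over 781 bases and was itself listed at a mean of 54.2 FPKM. Replication factor C (RFC) opens the clamp and sets it on DNA. Of its subunits, Rfc5 (ENSMUSG00000029363, chromosome 5, 117378103 to 117389047) had the largest change, with 28.4, 29.7 and 33.1 FPKM in DIF_5S, 24.7, 21.7 and 24.97 FPKM in DIF_NC, 49.6, 52.1 and 53.8 FPKM in N_5S and 48.4, 51.95 and 51.99 FPKM in N_NC. Its RA libraries were all below its mESC libraries, and DIF_5S libraries were all above DIF_NC libraries (log2 fold change of -1.06 ± 0.0674 SE, adjusted p = 6.44e-08 with RA without inhibitor). Rfc3 (ENSMUSG00000033970, chromosome 5, 151642756 to 151651242) had the smallest change, with 13.6, 12.8 and 13.4 FPKM in DIF_5S, 11.9, 11.7 and 13.6 FPKM in DIF_NC, 10.4, 10.7 and 11.3 FPKM in N_5S and 11.97, 12.7 and 12.8 FPKM in N_NC. Its DIF_NC and N_NC libraries overlapped (log2 fold change of -0.01 ± 0.0599 SE, adjusted p = 0.905; 95% confidence interval -0.14 to 0.12), and under TPM it was called higher, at 0.21. Its DIF_5S libraries were all above its N_5S libraries, and this rise passed (log2 fold change of 0.27 ± 0.0599 SE, adjusted p = 0.00166). Rfc2, Rfc1 and Rfc4 changed by -0.47, -0.27 and -0.27 without inhibitor. Of the exon bases of Rfc2, Rfc4 and Rfc5, 15.1%, 12.7% and 10.7% overlap a gene on the opposite strand.

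The Rfc3 promoter (chr5:151651184-151651408, minus strand, GRCm38.p6, same window and capitals) is shown because it holds a pair of E2F matches beside the start and the gene was not called lower.
Rfc3: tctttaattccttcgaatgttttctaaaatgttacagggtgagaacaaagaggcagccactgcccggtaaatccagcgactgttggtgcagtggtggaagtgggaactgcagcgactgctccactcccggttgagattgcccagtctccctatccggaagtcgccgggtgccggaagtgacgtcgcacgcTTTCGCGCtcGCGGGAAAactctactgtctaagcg
The matches begin 10 bases before the start and at the start itself.

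RPA, which coats single-stranded DNA, had 1 of 3 subunits lower without inhibitor. Rpa2 (ENSMUSG00000028884, chromosome 4, 132768332 to 132778752) had 34.6, 32.3 and 35.4 FPKM in DIF_5S, 38.7, 35.6 and 39.6 FPKM in DIF_NC, 51.1, 49.97 and 54.6 FPKM in N_5S and 57.6, 56.6 and 57.6 FPKM in N_NC. All RA libraries were below all mESC libraries (log2 fold change of -0.58 ± 0.0529 SE, adjusted p = 1.35e-06 without inhibitor). Rpa3 (ENSMUSG00000012483, chromosome 6, 8255936 to 8259173), the smallest subunit, had 26.3, 27.9 and 27.6 FPKM in DIF_5S, 34.4, 28.1 and 35.2 FPKM in DIF_NC, 30.2, 29.4 and 32.2 FPKM in N_5S and 34.9, 33.3 and 32.7 FPKM in N_NC. Its DIF_NC and N_NC values overlapped (log2 fold change of -0.05 ± 0.0742 SE, adjusted p = 0.553; 95% confidence interval -0.21 to 0.11), and under TPM it was called higher, at 0.18. Rpa1, the largest subunit and the main DNA-binding one, averaged 106 ± 9.70 FPKM in DIF_NC against 116 ± 1.32 FPKM in N_NC (SD, n = 3; log2 fold change of -0.13 ± 0.0615 SE, adjusted p = 0.0823), and it was called higher under TPM, at 0.11.

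The enzymes that finish Okazaki fragments and those that supply deoxynucleotides fell in all 4 cases. Lig1 (ENSMUSG00000056394, chromosome 7, 13277283 to 13311433), the ligase that seals nicks, had 82.8, 79.7 and 86.04 FPKM in DIF_5S, 84.8, 75.2 and 91.2 FPKM in DIF_NC, 119, 123 and 127 FPKM in N_5S and 119, 123 and 129 FPKM in N_NC. All RA libraries were below all mESC libraries (log2 fold change of -0.56 ± 0.0658 SE, adjusted p = 1.19e-05 without inhibitor). Fen1 (ENSMUSG00000024742, chromosome 19, 10199132 to 10204169), the flap endonuclease, had 2.75, 2.43 and 2.96 FPKM in DIF_5S, 3.08, 3.45 and 2.93 FPKM in DIF_NC, 4.88, 4.48 and 5.53 FPKM in N_5S and 4.88, 4.77 and 4.08 FPKM in N_NC. Its groups did not overlap (log2 fold change of -0.42 ± 0.0882 SE, adjusted p = 0.00106), but it was read at 110 to 209 fragments per library, and Gm10143 shares 78.8% of its exon bases on the opposite strand. Rrm2 (ENSMUSG00000020649, chromosome 12, 24708241 to 24714146), the small subunit of ribonucleotide reductase, had 74.3, 72.6 and 79.8 FPKM in DIF_5S, 76.9, 73.9 and 80.3 FPKM in DIF_NC, 123, 121 and 133 FPKM in N_5S and 140.3, 131 and 129 FPKM in N_NC. The RA libraries were well below the mESC libraries (log2 fold change of -0.79 ± 0.0561 SE, adjusted p = 1.73e-07 without inhibitor). Rrm1 (ENSMUSG00000030978, chromosome 7, 102441695 to 102469771), the large subunit, had 15.5, 16.2 and 15.9 FPKM in DIF_5S, 17.01, 17.2 and 18.6 FPKM in DIF_NC, 22.7, 24.2 and 23.8 FPKM in N_5S and 26.2, 26.95 and 25.2 FPKM in N_NC. All of its RA libraries were below all of its mESC libraries (log2 fold change of -0.54 ± 0.0475 SE, adjusted p = 9.47e-07).

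In RA-treated cells some replication genes were higher and others lower with the inhibitor. Of the 42 genes, 6 were higher and 13 lower in DIF_5S than in DIF_NC libraries, while 31.9% of all tested genes were called, 17.6% higher and 14.3% lower. In this fit the share of rises among the 42 genes was close to that of all tested genes, and the share of falls was larger. The larger share of falls did not hold in every fit. In a fit of the compared groups only, 4 of the 42 genes fell, against 1690 of 14866 tested genes. Without DIF_5S replicate 1, 5 of the 42 fell, against 1561 of 14706 tested genes. The median replication gene changed by -0.06 on the log2 scale, against 0.0023 for all tested genes, and the largest change on the log2(FPKM + 1) scale was 0.34, for Rfc5. The 6 genes that rose were Mcm2, Mcm3, Pola2, Pold1, Rfc2 and Rfc5. The 13 that fell were Mcm4, Mcm6, Orc2, Orc3, Orc4, Mcm10, Cdc45, Pold2, Pcna, Rfc1, Rpa2, Rpa3 and Rrm1. Pola2 and Rfc5 among the rises, and Mcm4 and Mcm10 among the falls, were called under every alternative tried. The number of rises was 3 without DIF_5S replicate 3, DIF_NC replicate 1 or DIF_NC replicate 2, and the number of falls was 5 without DIF_5S replicate 1, 7 without DIF_5S replicate 3 or DIF_NC replicate 1, and 8 without DIF_NC replicate 3. Over all tested genes, 4738 were called with every library and 3520 to 4247 with 1 library of these groups left out. Under TPM scaling 11 genes rose and 8 fell, with the falls of Orc2, Orc3, Pcna, Rfc1 and Rrm1 lost and rises called for Mcm5, Mcm7, Cdt1, Rfc3 and Rpa1. There 66.6% of all called genes were higher, against 55.3% in the deposited scaling.

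**Figure D4:**
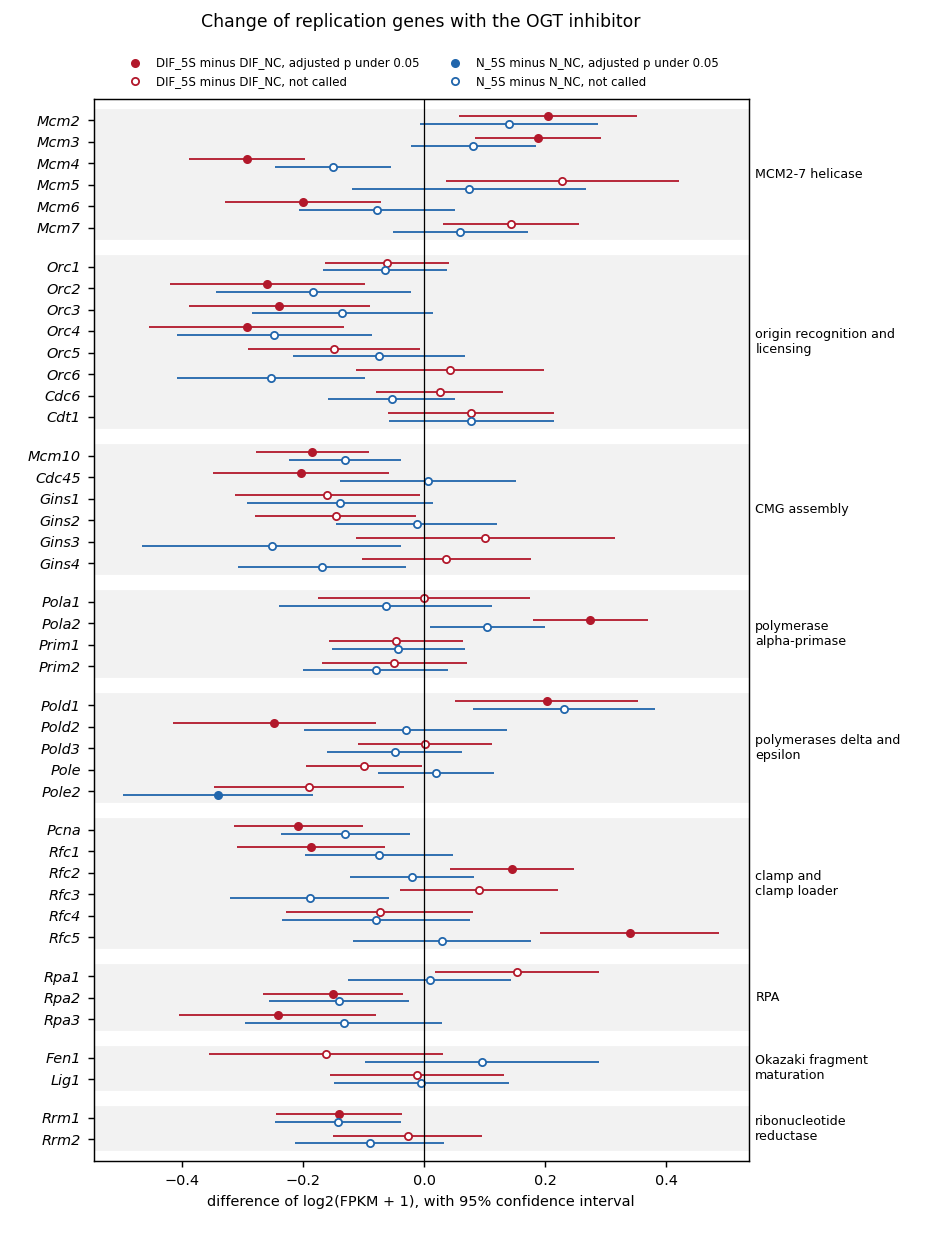
Difference of log2(FPKM + 1) with the OGT inhibitor for each of the 42 genes in RA-treated cells (DIF_5S minus DIF_NC) and in mESCs (N_5S minus N_NC), with 95% confidence intervals; filled points passed an adjusted p of 0.05. In RA-treated cells 6 filled points lie right of 0 and 13 left of it, and in mESCs only Pole2 is filled.

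Marker sums differed between the same groups, at 390 to 418 FPKM in DIF_5S against 488 to 543 FPKM in DIF_NC for stem cell genes and 129.8 to 143 FPKM in DIF_5S against 264 to 347 FPKM in DIF_NC for trophoblast genes. In the trophoblast list Krt8 and Krt18 fell and Eomes rose, and in the stem cell list 5 of 8 genes fell and 1 rose. Their part in the changes with inhibitor was not tested. The 6 called genes with the largest changes were Rfc5, Orc4, Mcm4, Pola2, Orc2 and Pold2. Rfc5 averaged 30.4 ± 2.39 FPKM in DIF_5S against 23.8 ± 1.79 FPKM in DIF_NC (SD, n = 3; log2 fold change of 0.34 ± 0.0674 SE, adjusted p = 0.00304). Pola2 averaged 29.1 ± 1.25 FPKM in DIF_5S against 23.9 ± 0.408 FPKM in DIF_NC (log2 fold change of 0.27 ± 0.0434 SE, adjusted p = 0.000804). For both genes the values in each library, given above, did not overlap. Orc4 averaged 3.15 ± 0.356 FPKM in DIF_5S against 4.08 ± 0.143 FPKM in DIF_NC (log2 fold change of -0.29 ± 0.0735 SE, adjusted p = 0.0106). Mcm4 (ENSMUSG00000022673, chromosome 16, 15623897 to 15637400) had 42.4, 44.6 and 41.8 FPKM in DIF_5S against 50.7, 54.1 and 53.5 FPKM in DIF_NC (log2 fold change of -0.29 ± 0.0438 SE, adjusted p = 0.000566). All of its DIF_5S libraries were below all of its DIF_NC libraries, as they were for Orc4. Orc2 (ENSMUSG00000026037, chromosome 1, 58462771 to 58505109) had 7.71, 8.75 and 7.76 FPKM in DIF_5S against 9.71, 10.99 and 8.95 FPKM in DIF_NC (log2 fold change of -0.26 ± 0.0734 SE, adjusted p = 0.0193). Pold2 (ENSMUSG00000020471, chromosome 11, 5872180 to 5878292), the second subunit of polymerase delta, had 89.6, 91.4 and 95.2 FPKM in DIF_5S against 112, 97.3 and 121 FPKM in DIF_NC (log2 fold change of -0.25 ± 0.0763 SE, adjusted p = 0.0282). Neither gene overlapped between the groups. The Orc2 call was lost without DIF_5S replicate 1, DIF_5S replicate 3 or DIF_NC replicate 2 and under TPM, and the Pold2 call without DIF_5S replicate 1, DIF_5S replicate 2, DIF_NC replicate 1 or DIF_NC replicate 3 and with no filter on low values. Both were lost in a fit of the compared groups only.

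MCM2-7 subunits work in equal number in the ring, and their transcripts changed unequally with the inhibitor. The summed level of the 6 subunits was 458 ± 13.03 FPKM in DIF_5S and 437 ± 32.9 FPKM in DIF_NC, and 897 ± 21.9 FPKM in N_5S and 874 ± 16.7 FPKM in N_NC (SD, n = 3). As a share of that sum, which does not depend on the scaling of the libraries, Mcm4 held 8.84 to 9.97% in DIF_5S libraries and 11.4 to 13.4% in DIF_NC libraries. Mcm6 held 15.2 to 17.0% in DIF_5S and 19.2 to 19.5% in DIF_NC. The share of Mcm2 was 15.4 to 16.2% in DIF_5S and 14.02 to 14.6% in DIF_NC, and that of Mcm3 was 19.8 to 20.1% in DIF_5S and 18.1 to 18.8% in DIF_NC. Mcm5 held 21.4 to 22.9% in DIF_5S and 18.5 to 21.2% in DIF_NC, and Mcm7 held 16.4 to 17.0% in DIF_5S and 15.5 to 16.1% in DIF_NC. In mESCs the ranges of Mcm4 were 9.69 to 10.53% in N_5S and 11.2 to 12.03% in N_NC, and those of Mcm6 were 12.6 to 12.9% in N_5S and 13.5 to 14.2% in N_NC. A share falls when others rise, so these values show unequal change and not which subunit moved.

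Transcript GC content moved with the inhibitor values. Among the 42 genes, those that rose in RA-treated cells had a GC content of 47.0 to 61.0% (median 51.5%) and those that fell 34.2 to 58.7% (median 45.5%). Mcm4 and Mcm6, at 45.5% and 47.3%, were lower in GC than the other subunits, at 51.7 to 53.4%. Over 14393 tested genes the median log2 fold change in RA-treated cells was 0.07 among genes of at least 56.0% GC and -0.10 among those of at most 44.4%, and in mESCs 0.06 and -0.06. Spearman's rho between GC content and the change was 0.24 in RA-treated cells and 0.27 in mESCs over these genes, and -0.02 for RA without inhibitor. Over the 42 replication genes alone it was 0.41 in RA-treated cells, 0.66 in mESCs and -0.28 for RA without inhibitor. It is given as a description, with points that share libraries. The median difference between these high-GC and low-GC genes, each against its own mean, was not even among replicates, at 0.19 in DIF_5S replicate 3 and -0.23 in DIF_NC replicate 2. With values centred within bins of GC content, an alternative chosen after seeing the data, 4 of the 42 genes rose and 11 fell. The shares of all tested genes called in that fit are not given here, so these counts cannot be set against them. The median replication gene differed from the median gene by -0.025 there, against -0.058 in the main fit. With this centring Mcm4, Mcm6, Mcm3, Pola2, Pold2 and Rfc5 were called, at log2 fold changes of -0.23, -0.19, 0.13, 0.29, -0.30 and 0.27. The calls of Mcm2, Rfc2, Orc3, Orc4, Rpa3 and Rrm1 were lost, with Mcm2 at 0.14 and Orc4 at -0.15.

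**Figure D5:**
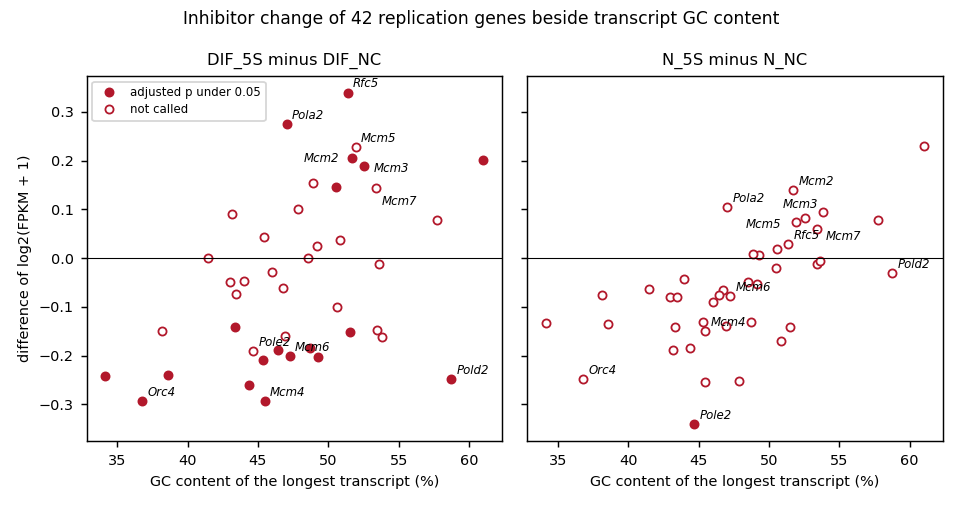
Difference of log2(FPKM + 1) with the inhibitor in RA-treated cells (left) and in mESCs (right) against the GC content of the longest GENCODE M21 transcript, 1 point per gene for the 42 genes; filled points passed an adjusted p of 0.05. Called rises on the left lie at 47.0 to 61.0% GC and called falls at 34.2 to 58.7%, with Pold2 as a fall at high GC.

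In mESCs the inhibitor changed 1 of the 42 genes. Pole2, the B subunit of polymerase epsilon, was lower, and 0 genes were higher, while 7.78% of all tested genes were called, 3.18% lower and 4.6% higher. Pole2 (ENSMUSG00000020974, chromosome 12, 69201773 to 69228195) had 11.3, 12.4 and 12.7 FPKM in N_5S against 15.4, 17.2 and 14.4 FPKM in N_NC (log2 fold change of -0.34 ± 0.0713 SE, adjusted p = 0.0181). The groups did not overlap, and in RA-treated cells Pole2 averaged 7.72 ± 0.565 FPKM in DIF_5S against 8.94 ± 0.341 FPKM in DIF_NC, where the test was not passed (log2 fold change of -0.19 ± 0.0713 SE, adjusted p = 0.0616). The call in mESCs was lost without N_5S replicate 1, N_5S replicate 2, N_NC replicate 1 or N_NC replicate 2, when 0 genes were lower. Over all tested genes the number called also went down in these fits, from 1157 to 816, 357, 492 and 429. The number of lower genes was 2 without DIF_5S replicate 2, DIF_NC replicate 2 or N_NC replicate 3, and 3 without DIF_NC replicate 3. At an unadjusted p under 0.05 there were 14 genes, and the share of all tested genes at that cut was not computed. Limma-voom called 1 higher and 3 lower, where it called 848 of 14866 tested genes higher and 586 lower. Chosen after their values were seen, the genes closest to the threshold were Orc6 (log2 fold change of -0.25 ± 0.0708 SE, adjusted p = 0.0519), Mcm4 (log2 fold change -0.15, adjusted p = 0.059), Orc4 (log2 fold change -0.25, adjusted p = 0.0619) and Pold1 (log2 fold change 0.23, adjusted p = 0.0634).

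The inhibitor's effect differed between RA-treated cells and mESCs for 0 of the 42 genes in the deposited scaling, while 7.69% of all tested genes were called in this difference, 3.9% higher and 3.79% lower. At an unadjusted p under 0.05 there were 9 genes, and the share of all tested genes at that cut was not computed. Limma-voom on recovered fragments called Rfc5, where it called 1258 of 14866 tested genes. Other scalings changed these calls: median-of-ratios scaling called Rfc3 and Rfc5 higher, and TPM called Rfc3, Rfc5, Orc6 and Rpa1 higher. Under TPM 62.2% of all called genes were higher, against 50.7%. The genes named here were chosen after their values were seen, for the smallest adjusted p. For Rfc3 the difference of log2 fold changes was 0.28 (95% confidence interval 0.09 to 0.47, adjusted p = 0.0678), with an inhibitor effect of 0.09 in RA-treated cells and -0.19 in mESCs. For Rfc5 it was 0.31 (95% confidence interval 0.10 to 0.52, adjusted p = 0.071), with 0.34 in RA-treated cells and 0.03 in mESCs. Orc6 followed at 0.30 (adjusted p = 0.0968). Without DIF_NC replicate 3 the number of genes called was 2, and without N_NC replicate 3 it was 1.

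Genes that work beside the core machinery were read from lists chosen with earlier results of these data known. With RA without inhibitor, 9 of 13 initiation kinases and firing factors fell and 3 rose, where 37.2% of all tested genes fell and 33.7% rose. Ccne1, a cyclin that drives entry into S phase, changed by -1.01, and Ticrr, which helps to load Cdc45, by -0.79. The other E-type cyclin, Ccne2, rose by 0.65, and Donson, a helicase assembly factor, by 0.54. Of 19 tested fork factors 14 fell and 0 rose, among them Chtf18 at -1.22, Dna2 at -0.97 and Timeless at -0.90. Of 10 deoxynucleotide supply genes 6 fell and 1 rose. Tk1, Dtymk and Tyms, which make thymidine nucleotides, changed by -1.18, -1.10 and -1.08, and Rrm2b, the p53-responsive reductase subunit, by 0.39. Of 12 replication-coupled chromatin assembly genes 11 fell and 0 rose, among them Nasp at -1.24 and Uhrf1 at -1.16. The median log2 fold changes of these lists were -0.41, -0.48, -0.49 and -0.60, against -0.03 for all tested genes.

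The E2F, DP and RB families, which carry the transcriptional control of many replication genes, held 13 tested genes. With RA without inhibitor 7 of them fell and 3 rose, against 37.2% lower and 33.7% higher over all tested genes. E2f4 averaged 33.0 ± 0.816 FPKM in DIF_5S and 31.6 ± 0.953 FPKM in DIF_NC, against 89.7 ± 0.807 FPKM in N_5S and 97.2 ± 2.82 FPKM in N_NC (SD, n = 3). Its log2 fold change without inhibitor was -1.59 (adjusted p = 6.77e-11). E2f8 and E2f2 changed by -1.05 and -1.03, and Rb1 by 0.95. Mki67, a proliferation marker, averaged 8.68 ± 1.12 FPKM in DIF_5S and 10.55 ± 1.44 FPKM in DIF_NC, against 8.29 ± 1.12 FPKM in N_5S and 9.28 ± 0.557 FPKM in N_NC. It passed in none of the 5 comparisons, with a log2 fold change of 0.16 for RA without inhibitor (adjusted p = 0.219).

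With the inhibitor in RA-treated cells 17.6% of all tested genes rose and 14.3% fell, and several of the following counts are near those shares. Of the 13 initiation genes 6 fell and 0 rose, with Ccne1 at -0.47, Ccne2 at -0.46 and Gmnn, the inhibitor of Cdt1, at -0.35. Of 19 fork factors 2 rose and 4 fell, with Timeless at 0.50 and Top2a at -0.37. Of 10 deoxynucleotide supply genes 4 rose and 2 fell. Tyms, thymidylate synthase, averaged 7.79 ± 0.173 FPKM in DIF_5S against 4.83 ± 0.0708 FPKM in DIF_NC, and 11.7 ± 0.459 FPKM in N_5S against 11.4 ± 0.545 FPKM in N_NC. Its inhibitor effect was 0.59 in RA-treated cells (adjusted p = 1.53e-05), and it was the single gene of these lists whose effect differed between the states (difference of log2 fold changes 0.55, adjusted p = 0.00118). Of 12 chromatin assembly genes 3 rose and 4 fell, and of 13 E2F, DP and RB genes 2 rose and 6 fell. In mESCs, where 4.6% of all tested genes rose and 3.18% fell, the calls were Gmnn at -0.25, Slbp at -0.27, Timeless at 0.34, Chtf8 at 0.24, Pole3 at -0.19 and Samhd1 at 0.23. None of the 13 E2F, DP and RB genes was called in mESCs.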

How the data were processed

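TRIzol RNA was turned into libraries with a NEBNext Ultra RNA kit, per the labels' protocols. The authors deposited 1 table of FPKM for 12 libraries; HISAT2 2.0.5, featureCounts 1.5.0 and GRCm38 are named in the submitters' processing notes, and the strand setting, the FPKM formula and any filter are not given there. FPKM times gene length came out as whole fragments in 100% of cases (tolerance 0.02), giving 15553627 to 17833464 fragments per library. The deposited scaling differs from these totals: fragments per implied fragment were 0.883 to 0.934 in RA libraries and 1.06 to 1.11 in mESC libraries.

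The 14866 genes reaching 1 FPKM in 3 or more libraries were tested with limma 3.58.1 in R 4.3.3 on log2(FPKM + 1), with an intensity trend, 1 fit of all 4 groups and Benjamini-Hochberg adjustment over these genes at 0.05, for 5 comparisons. The fit was also run on simulated fragments with a fixed spread. These held neither the deposited scaling nor a tie to GC content, so that run does not bear on either. Two-sided p-values and 95% confidence intervals are reported. Values in every library are given for the members of each complex with the largest and the smallest RA change without inhibitor and for up to 6 called members per inhibitor comparison. The members and lists were chosen with earlier results of these data known. Promoters are from RefSeq (GRCm38.p6). GC content and sequence copies, found with BLAST 2.17.0, are from GENCODE M21. Tables were made with Python 3.11.15. The 23 alternatives are described with their effects at the end; the one on recovered fragments used limma-voom. No replicates were merged, since all pairs differed beyond counting error (chi-square per gene 3.74 to 9.96).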

Additional observations from a re-analysis of the deposited data

How the results depend on the processing

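Of the 37 falls with RA without inhibitor, 28 were called under all 23 alternatives, and 36 whichever library was left out. Under TPM scaling, signs turned without inhibitor for Cdc45 (log2 fold change 0.019), Rfc3 (0.21), Rpa1 (0.11) and Rpa3 (0.18), and with inhibitor for Gins4 (0.11), Prim2 (0.0073), Pold3 (0.075) and Rfc4 (0.0036). TPM called 2 genes higher and 3 lower for the inhibitor in mESCs, 4 higher for RA without inhibitor, 11 higher and 8 lower for the inhibitor in RA-treated cells, 5 higher for RA with inhibitor and 4 higher for the difference. Median-of-ratios scaling gave 1 higher and 2 lower in mESCs, 1 higher for RA without inhibitor, 4 higher with it and 2 for the difference. Limma-voom gave 1 higher and 3 lower in mESCs, 1 higher for RA without inhibitor, 2 with it and 1 for the difference. In RA-treated cells, 8 inhibitor falls were called without a filter, 3 rises without a variance trend, and 2 rises and 4 falls in a fit of the compared groups only, where Orc2 and Pold2 were lost and which also left 0 in mESCs; the cause was not tested. A pseudocount of 0.1 moved no count by over 1.5 times. A filter at a mean of 5 FPKM gave 1 higher and 2 lower in mESCs. The next 2 alternatives were chosen after seeing the data. Centring on the median gene gave 2 lower in mESCs, 1 higher for RA without inhibitor and 2 with it, and centring within 20 bins of GC content gave 2 lower in mESCs and 1 higher for the difference.

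With 1 library left out, counts ranged, for the inhibitor in mESCs, over 0 to 0 higher and 0 to 3 lower; for RA without inhibitor 0 to 0 higher and 36 to 38 lower; for the inhibitor in RA-treated cells 3 to 8 higher and 5 to 13 lower; for RA with inhibitor 1 to 1 higher and 35 to 37 lower; and for the difference 0 to 2 higher and 0 to 0 lower. A fit with the replicate number as a block called 1 gene higher in mESCs and 2 for the difference, Rfc3 and Rfc5. Libraries with the same number were not shown to be pairs: 3 of 18 correlations of their deviations exceeded 0.1 (range -0.02 to 0.12), and 6 of 12 libraries correlated best with one of the same number. Fen1 rested on the fewest fragments, at 110 to 209 per library, and Gm10143 shares 78.8% of its exon bases. The part of depth and of shared exons in this was not tested.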
